A study of Mus musculus with 12 samples.

Results

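The transcripts of 10 Kruppel-like factor (KLF) genes, Klf2, Klf3, Klf4, Klf5, Klf6, Klf9, Klf10, Klf13, Klf15 and Klf16, were followed in mouse embryonic stem (mES) cells that were losing the chromatin remodeler BRG1. The 10 genes are part of 24421 gene symbols with counts and of the 17 Klf symbols among them. They were selected on these same dose comparisons, as a family whose members moved in opposite directions, with Klf4 higher and Klf15 nearly lost. Their levels and fold changes are therefore given as a description, without p-values, and the calls counted for them below describe the same choice and are no independent test.

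The cells came from C57BL/6J (B6) blastocysts, grew on gelatin in 2i+LIF medium, and in every group carried an FKBP12-F36V degron knocked into the Brg1 locus. The dTAG13 molecule directs the tagged BRG1 to the proteasome, and the knock-in cells were exposed to it at 0.3, 1, 3, 10 or 100 nM for 24 h. The control libraries are labelled as having no treatment and are called 0 nM here, which the study describes as DMSO. Each of the 6 groups held 2 RNA-seq libraries, described as independent experiments, and the sources used here do not say how many knock-in clones they came from. No untagged cells were in the series, so every value describes degron-carrying cells with more or less BRG1. In bulk RNA, fewer cells of a type and less RNA per cell cannot be told apart.

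KLF proteins bind GC-rich and CACCC-type DNA through a conserved set of zinc fingers at their carboxy end, and differ mainly in the region before it, which recruits either activators or corepressors. In mES cells KLF2, KLF4 and KLF5 act together downstream of LIF and other inputs to hold the naive pluripotent state. KLF3 recruits the corepressor CtBP, KLF9, KLF10, KLF13 and KLF16 recruit SIN3, and KLF6 and KLF15 are better known as activators in stress and metabolism.

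Total counts ran from 4663484 to 6375582 read pairs per library, and all 10 genes passed the filter of a mean of 1 RPKM, the read pairs scaled to exon length and to TMM-adjusted library size. The degron acts on protein, so the transcript of the tagged gene is no check of the treatment: Smarca4, the gene of BRG1, stood between 63.5 and 71.3 RPKM in the 12 libraries. All 6 mES cell markers were expressed in every group. Their summed level was 1846 to 1860 RPKM at 0 nM and 1639 to 1684 RPKM at 100 nM, and members moved in opposite directions. Mean levels at 0 and 100 nM were 798 and 570 RPKM for Dppa5a, 573 and 507 for Pou5f1, and 125 and 111 for Esrrb. They were 229 and 329 RPKM for Nanog, 62.8 and 71.7 for Sox2, and 65.9 and 71.7 for Zfp42. The 5 neural markers summed to 4.98 to 5.87 RPKM at 0 nM and 10.7 to 10.98 RPKM at 100 nM, and the 6 mesoderm markers to 14.02 to 17.5 and 20.8 to 21.7 RPKM. The 7 trophectoderm markers summed to 28.4 to 29.7 RPKM at 0 nM and 27.8 to 30.6 RPKM at 100 nM, a near-level sum in which members moved in opposite directions: mean levels without and with 100 nM were 0.552 and 4.76 RPKM for Cdx2, 3.38 and 5.46 for Tfap2c, and 9.10 and 2.23 for Krt8. Of the 7 primitive endoderm and 6 fibroblast markers, 0 reached 1 RPKM on average, and of all these lists Zic1 was the marker without a count in both 0 nM libraries. The part of these marker levels in the Klf values was not tested. The library descriptions carry S numbers in 2 overlapping runs, one over the 0, 1, 10 and 100 nM libraries and the other over 0.3 and 3 nM. What the runs stand for is not given in the sources used here, so at 0.3 and 3 nM the dose and the run cannot be told apart, and the log2 difference of 3 nM from 0.3 nM, within one run, is given for each of the 10 genes.

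Promoter windows from RefSeq (GRCm38.p6, the same coordinates as mm10) were found for 7 of the 10 genes and not for Klf5, Klf10 and Klf16. The 250 bases before the annotated start of 3 of them are shown 5′ to 3′ on the strand of the gene: Klf15 and Klf6, which stood lower with dTAG13, and Klf4, the most abundant Klf transcript at 100 nM. Capitals mark the CACCC box or its reverse complement GGGTG. The windows lie at chr6:90462326-90462575 on the plus strand for Klf15, chr13:5861239-5861488 on the plus strand for Klf6 and chr4:55532476-55532725 on the minus strand for Klf4. The RefSeq start of Klf15, 90462576, lies before the start of its counted exons, 90462626. The bases just after the Klf4 window were not found in a GENCODE transcript of Klf4, whereas the other windows passed this check.
Klf15: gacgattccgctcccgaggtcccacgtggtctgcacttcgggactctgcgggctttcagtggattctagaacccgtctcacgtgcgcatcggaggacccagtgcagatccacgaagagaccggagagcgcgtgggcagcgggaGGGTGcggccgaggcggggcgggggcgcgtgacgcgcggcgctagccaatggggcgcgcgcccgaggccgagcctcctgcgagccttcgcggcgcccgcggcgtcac
Klf6: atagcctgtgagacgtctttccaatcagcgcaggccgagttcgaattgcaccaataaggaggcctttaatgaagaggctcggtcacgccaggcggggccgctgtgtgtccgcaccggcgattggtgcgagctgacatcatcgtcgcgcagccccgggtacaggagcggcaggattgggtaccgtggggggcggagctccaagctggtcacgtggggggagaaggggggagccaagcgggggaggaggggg
Klf4: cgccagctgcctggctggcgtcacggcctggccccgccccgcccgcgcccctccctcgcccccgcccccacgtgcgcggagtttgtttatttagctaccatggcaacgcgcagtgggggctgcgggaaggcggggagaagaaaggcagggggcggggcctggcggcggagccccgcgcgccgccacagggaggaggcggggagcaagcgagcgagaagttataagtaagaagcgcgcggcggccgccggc

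These windows were searched on both strands for CACCC, the GC box GGGCGG, the CCAAT box, TATAAA and the STAT motif TTCCNGGAA. The GC box and the CACCC box are different stretches of letters, and matches of both may share bases. Klf15 held 1 CACCC box, 1 GC box and 1 CCAAT box, Klf6 held 0, 1 and 4 of them, and Klf4 held 4 GC boxes and neither of the others. Among all 32851 RefSeq windows, 52.0% held a CACCC box, 32.7% a GC box and 33.9% a CCAAT box. Of the other members, Klf3 held 5 CACCC boxes and Klf2, Klf9 and Klf13 held 1 each. TATAAA, present in 12.4% of all windows, and TTCCNGGAA, present in 0.913%, had no match in the 7 windows. The windows of the 7 genes had 59.6% (Klf9) to 78.4% (Klf3) G or C, against a median of 52.4% over all windows, and 18 (Klf9) to 37 (Klf15) CpG dinucleotides against a median of 6. The genes with the lowest and the highest fold change among these 7, Klf15 and Klf4, had nearly the same GC content, 72.0% and 74.0%. A match is a stretch of letters and was not tested as a binding site.

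Klf15 and Klf6 stood lower with rising dose, Klf16, Klf10 and Klf4 stood higher, and the other 5 either stayed within 0.19 log2 units of 0 nM at every dose (Klf3, Klf5 and Klf9) or dipped at the middle doses and returned (Klf2 and Klf13). A call required that edgeR's quasi-likelihood test gave an adjusted p (Benjamini-Hochberg, over the 11378 genes of at least 1 RPKM) under 0.05 and that the fold exceeded 1.5. At 0.3 and 1 nM, 0 of the 10 genes were called, where 0.0176% and 0.914% of all tested genes were called in either direction. At 3 nM 1 was called lower, Klf15, beside 2.38% of all tested genes called lower, and 0 were called higher beside 1.52%. At 10 nM Klf15 was called lower and Klf16 higher, beside 4.92% and 3.01% of all genes. At 100 nM Klf15 and Klf6 were called lower and Klf16 higher, beside 6.83% and 4.37%. Because these contrasts chose the genes, nothing is read from these counts. The 5 doses share the 0 nM libraries.

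**Figure D1:**
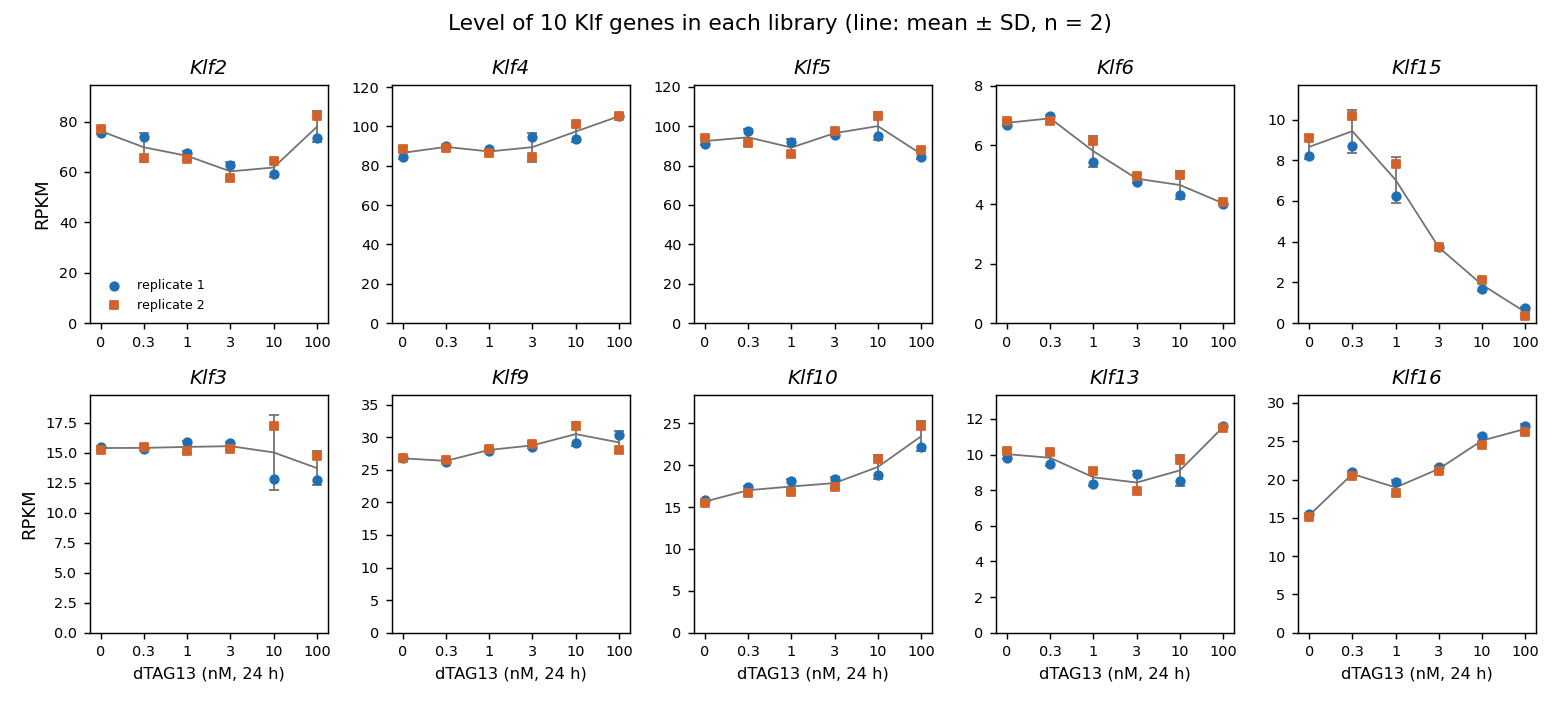
RPKM (vertical axes from 0, one scale per gene) of the 10 Klf genes in each of the 12 libraries by dTAG13 dose in nM, with circles and squares for the 2 libraries of a dose and lines for the mean ± SD. Klf15 goes from 8.66 RPKM at 0 nM to 0.539 at 100 nM, Klf16 from 15.3 to 26.6 RPKM, and Klf2 and Klf13 are lowest at 3 nM.

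Klf15, a glucocorticoid-induced and fasting-induced activator of amino acid and glucose metabolism genes in liver and muscle, lies on mm10 chromosome 6 from 90462626 to 90475209 on the plus strand. The 0, 0.3 and 1 nM pairs of libraries held 110 and 128, 113 and 133, and 85 and 108 of its counts. Those of 3, 10 and 100 nM held 42 and 48, 23 and 28, and 10 and 5. On the RPKM scale the 0, 3, 10 and 100 nM levels were 8.66 ± 0.598, 3.72 ± 0.00382, 1.88 ± 0.319 and 0.539 ± 0.258 (SD, n = 2). From 1 nM upwards both libraries of every dose were below both 0 nM libraries, while those of 0.3 nM overlapped them. As a percentage of its 0 nM level, the mean RPKM was 81.3, 43.0, 21.8 and 6.23 with 1, 3, 10 and 100 nM. The fitted log2 fold changes were 0.12, -0.30, -1.22, -2.20 and -3.99 in order of dose, with a standard error of 0.29 at 100 nM. With 15 counts over both 100 nM libraries, its log2 fold change at that dose ran from -4.57 to -3.57 when 1 library was left out, the widest such range of the 10 genes. Between doses other than 0 nM, which the choice of the gene also used, the log2 difference was -1.34 (standard error 0.20) from 0.3 to 3 nM and -1.79 (standard error 0.39) from 10 to 100 nM.

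Klf6, an immediate-early and injury-induced activator, lies on chromosome 13 from 5861489 to 5870393 on the plus strand. In the 0, 0.3, 1, 3, 10 and 100 nM pairs of libraries its RPKM was 6.68 and 6.83, 6.98 and 6.83, 5.43 and 6.16, 4.76 and 4.98, 4.31 and 4.998, and 4.005 and 4.07. As with Klf15, the libraries from 1 nM upwards all lay below the 0 nM libraries, but Klf6 kept 59.8% of its 0 nM level at the highest dose. The log2 fold changes at 1, 3, 10 and 100 nM were -0.22, -0.47, -0.54 and -0.74, the last with a standard error of 0.14. Most of the decrease was in place by 3 nM, which stood at -0.50 (standard error 0.14) against 0.3 nM, whereas 100 nM stood at -0.20 (standard error 0.15) against 10 nM. At 10 nM Klf6 missed the 1.5-fold line, and it was called lower there without replicate 2 of 10 nM.

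**Figure D2:**
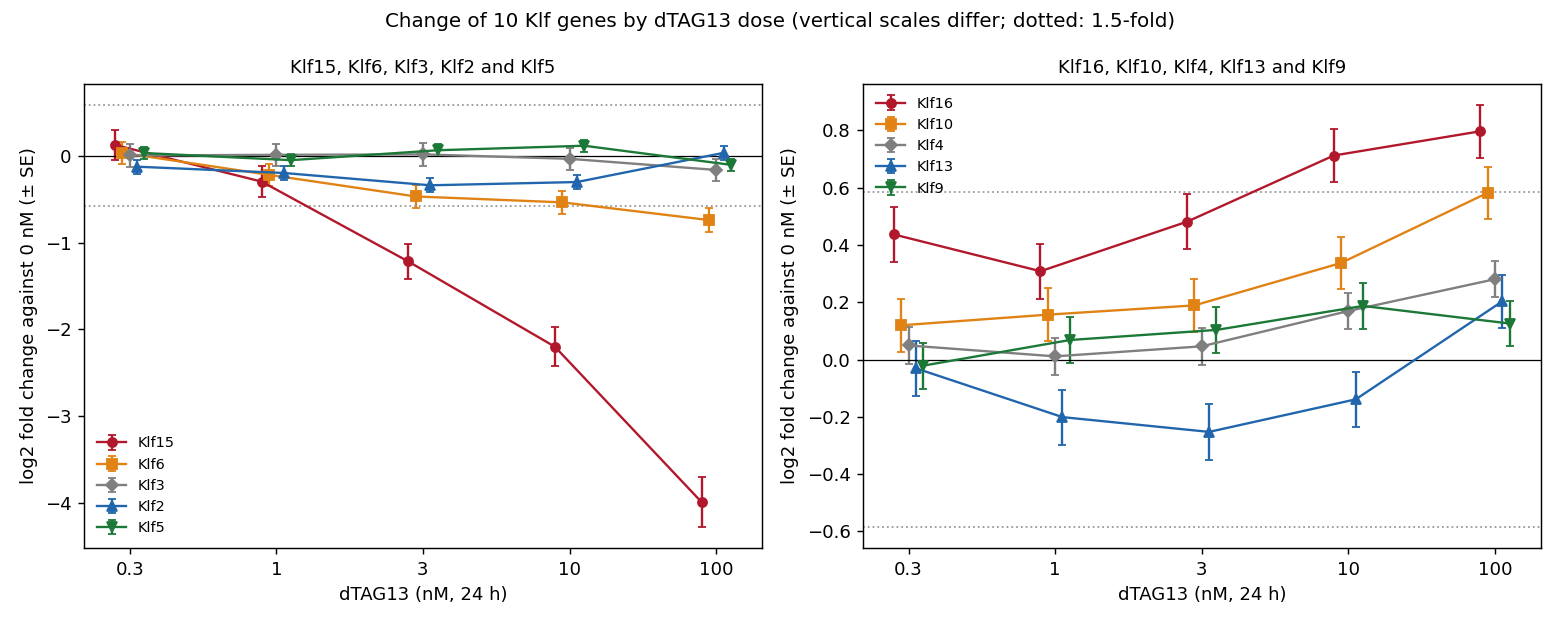
Log2 fold change against 0 nM (± SE, from a fit of all 12 libraries) of the 10 Klf genes by dTAG13 dose in nM, 5 genes per panel on separate vertical scales, with dotted lines at a fold change of 1.5. Klf15 runs from 0.12 to -3.99 and Klf6 from 0.03 to -0.74 on the left, and Klf16 reaches 0.80 and Klf10 0.58 on the right.

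Klf4, one of the 4 classical reprogramming factors and part of the naive pluripotency network, lies on chromosome 4 from 55527137 to 55532475 on the minus strand. In the 0, 0.3, 1, 3, 10 and 100 nM pairs of libraries its RPKM was 84.4 and 88.7, 90.3 and 88.9, 88.3 and 86.2, 94.7 and 84.2, 93.5 and 101, and 105 and 105. The libraries of 1 and 3 nM overlapped those of 0 nM, while both libraries of 0.3, 10 and 100 nM were above them. The log2 fold change was 0.17 at 10 nM and 0.28 at 100 nM (standard error 0.063), so the higher level by which Klf4 was chosen came to 121% of the 0 nM level, under the 1.5-fold line. Between 0.3 and 3 nM the difference was 0.00 (standard error 0.064).

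Klf2, which acts with KLF4 and KLF5 in mES cells and is also a flow-induced factor of endothelium, lies on chromosome 8 from 72319062 to 72321654 on the plus strand. From the lowest to the highest dose, 0 nM first, the pairs of libraries had 75.5 and 77.0, 73.9 and 65.6, 67.6 and 65.1, 62.9 and 57.5, 59.1 and 64.4, and 73.6 and 82.2 RPKM. All 8 libraries from 0.3 to 10 nM lay below the 0 nM libraries, and those of 100 nM spanned them. In log2 units the differences from 0 nM were -0.13, -0.20, -0.34, -0.30 and 0.03, with a standard error of 0.080 at 100 nM. Within the second run of S numbers, 3 nM differed from 0.3 nM by -0.21 (standard error 0.083), and the return at the top dose was 0.34 (standard error 0.081) against 10 nM. At 100 nM the sign of the small difference changed with the library left out, from -0.05 to 0.11, and without the filter on low values (-0.05).

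Klf5, needed for the trophectoderm and inner cell mass of the blastocyst, lies on chromosome 14 from 99298691 to 99313409 on the plus strand and was the most abundant of the 10 transcripts at 0 nM. Its 2 libraries had 90.9 and 94.0 RPKM without dTAG13, and 97.3 and 91.4, 92.2 and 86.1, 95.5 and 97.3, 94.9 and 105, and 84.1 and 87.7 RPKM with 0.3, 1, 3, 10 and 100 nM. The 3 and 10 nM libraries were above those of 0 nM and the 100 nM libraries below them. These shifts were small, with log2 fold changes of 0.06, 0.11 and -0.11 (standard error 0.071 at 100 nM), and 3 nM differed from 0.3 nM by 0.03 (standard error 0.072). Against 10 nM, the 100 nM level stood at -0.22 (standard error 0.071), opposite in sign to Klf2 and Klf4 over the same step.

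Klf3, a CtBP-recruiting repressor of erythroid and fat cell genes, lies on chromosome 5 from 64803523 to 64830129 on the plus strand. Its level was between 15.1 and 15.9 RPKM in all 8 libraries from 0 to 3 nM. The 10 nM libraries were apart from each other, at 12.8 and 17.2 RPKM, and those of 100 nM had 12.7 and 14.7 RPKM, both below the 0 nM libraries. The log2 fold change at 100 nM was -0.17 (standard error 0.13), and 3 nM differed from 0.3 nM by 0.01 (standard error 0.13). The counting did not use the strand, and GENCODE places exons of the minus-strand gene Gm20033 on the counted exons, so pairs from either gene cannot be told apart.

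Klf16, a small SIN3-recruiting repressor of metabolic genes, lies on chromosome 10 from 80567121 to 80577296 on the minus strand and showed the largest increase of the 10 genes at 100 nM. Without dTAG13 it had 15.5 and 15.2 RPKM, and with 0.3, 1, 3, 10 and 100 nM it had 21.0 and 20.5, 19.7 and 18.3, 21.7 and 21.1, 25.6 and 24.6, and 27.0 and 26.2 RPKM. Every dTAG13 library was above both 0 nM libraries, including those of the lowest dose. The log2 fold changes were 0.44, 0.31, 0.48, 0.71 and 0.80 (standard error 0.093 at 100 nM), which is 174% of the 0 nM level at 100 nM. Over 0, 1, 10 and 100 nM the level stood higher at each dose, while the 0.3 and 3 nM libraries, of the other run of S numbers, had nearly the same level as each other, a difference of 0.04 (standard error 0.093).

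Klf10, the TGF-beta inducible early gene and a repressor of cell growth genes, lies on chromosome 15 from 38291464 to 38300711 on the minus strand. Its 0 nM libraries had 15.9 and 15.4 RPKM, and those of 0.3, 1, 3, 10 and 100 nM had 17.4 and 16.6, 18.1 and 16.8, 18.3 and 17.4, 18.8 and 20.8, and 22.2 and 24.7 RPKM. All dTAG13 libraries were above the 0 nM libraries, and the mean was higher at each dose than at the one before, and 3 nM differed from 0.3 nM by 0.07 (standard error 0.093). The log2 fold change at 100 nM was 0.58 (standard error 0.090), 149.7% of the 0 nM level and just under the 1.5-fold line, so that small changes of scaling or library decided whether it was called.

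Klf13 and Klf9 are close relatives that recruit SIN3. Klf13 lies on chromosome 7 from 63886351 to 63938915 on the minus strand, within an interval where GENCODE lists opposite-strand genes that do not touch its counted exons. Over the 6 groups, from 0 to 100 nM, Klf13 had 9.83 and 10.2, 9.49 and 10.2, 8.37 and 9.08, 8.88 and 7.98, 8.50 and 9.72, and 11.6 and 11.48 RPKM. The 1, 3 and 10 nM libraries were below the 0 nM libraries and those of 100 nM above them, with log2 fold changes of -0.25 at 3 nM and 0.20 at 100 nM (standard error 0.098 and 0.093). Its difference of 3 nM from 0.3 nM was -0.22 (standard error 0.099), and that of 100 nM from 10 nM, 0.34 (standard error 0.094), was of the size seen for Klf2. Klf9, which is induced by glucocorticoid and thyroid hormone, lies on chromosome 19 from 23141226 to 23166911 on the plus strand and stayed between 26.2 and 31.8 RPKM in all 12 libraries. The 0, 10 and 100 nM libraries had 26.7 and 26.8, 29.2 and 31.8, and 30.4 and 28.0 RPKM, and its log2 fold change at 100 nM was 0.13 (standard error 0.079), with 0.12 (standard error 0.081) between 3 and 0.3 nM.

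The order of the levels changed with dose, on the RPKM scale, which allows genes of different length to be compared. At 0 nM it was Klf5, Klf4 and Klf2 (92.4, 86.6 and 76.2 RPKM), then Klf9 (26.8), then Klf10, Klf3 and Klf16 (15.7, 15.4 and 15.3), and last Klf13, Klf15 and Klf6 (10.0, 8.66 and 6.75). Klf10 and Klf3 overlapped in their libraries, as did Klf3 and Klf16, and all other neighbours in this order were separate. At 100 nM Klf4 was first with 105 RPKM, followed by Klf5 (85.9) and Klf2 (77.9), Klf16 and Klf10 had moved ahead of Klf3 (26.6, 23.4 and 13.7 RPKM), and Klf15 was last. In that order no neighbours overlapped.

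Summed over the 17 Klf genes, the level was 374 ± 6.98 RPKM without dTAG13 and 404 ± 7.43 RPKM with 100 nM (SD, n = 2). The share of Klf2, Klf4 and Klf5 together was 68.2% ± 0.395 at 0 nM and 66.6% ± 0.864 at 100 nM. Within it, Klf4 went from 23.1% to 26.1% and Klf5 from 24.7% to 21.3% of the sum, while the share of Klf2 was 20.4%, 15.9% and 19.3% with 0, 10 and 100 nM. Klf15 went from 2.31% to 0.134% and Klf16 from 4.09% to 6.60%.

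**Figure D3:**
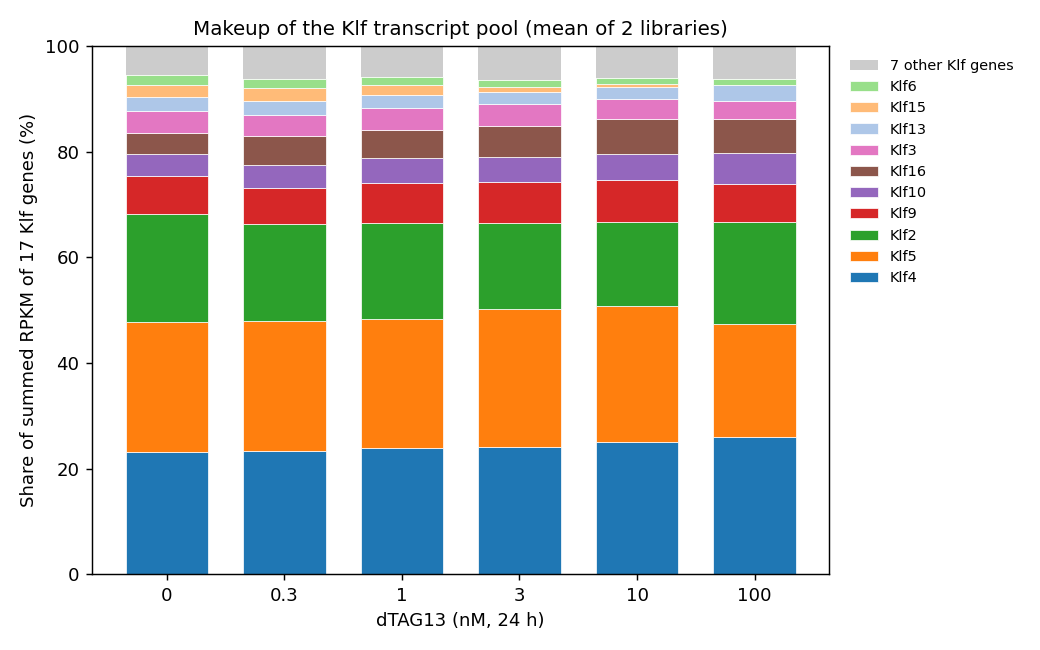
Share in percent of the summed RPKM of 17 Klf genes taken by each of the 10 genes and by the 7 others together, by dTAG13 dose in nM (mean of 2 libraries). Klf2, Klf4 and Klf5 hold 66.2% to 68.2% at every dose, the band of Klf15 narrows from 2.31% to 0.134%, and that of Klf16 widens from 4.09% to 6.60%.

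The other 7 Klf genes and the 9 Sp genes, which share the zinc fingers, were tested against 0 nM with edgeR's quasi-likelihood test. They were set apart from the 10 genes with earlier results of these data known, so their calls are no independent test. Klf12, a CtBP-recruiting repressor like KLF3, had 33 and 35, 74 and 89, and 102 and 98 counts with 0, 10 and 100 nM. It rose by 1.28 log2 units at 10 nM (adjusted p = 0.000268) and by 1.53 at the top dose (standard error 0.23, adjusted p = 1.16e-05), the only called gene of the 7 at these doses. With 0.991, 0.981 and 0.949 RPKM at 0, 0.3 and 1 nM, Klf12 passed the filter on low values through its higher doses, and in the fit without that filter its value at 100 nM was 1.45 (adjusted p = 1.63e-08). Klf11, the closest relative of Klf10, passed the adjusted p but not the fold minimum at 3 nM (0.49, adjusted p = 0.0189) and at 100 nM (0.47, adjusted p = 0.00982). Klf1, Klf7 and Klf8 were not called at any dose, with log2 fold changes at 100 nM of 0.70, 0.07 and -0.04, and neither were Klf14 and Klf17, which had under 1 RPKM. At 100 nM the 5 tested genes of this list had a median log2 fold change of 0.47, against 0 for all tested genes, and are what was left of the family once the 10 genes had been taken out.

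Of the 6 Sp genes of at least 1 RPKM, 1 rose and 2 fell at 100 nM, where 4.37% of all tested genes were called higher and 6.83% lower. Sp5, a Wnt target and repressor, rose from 10.4 and 10.2 RPKM to 20.7 and 19.8, by 0.97 log2 units (standard error 0.12, adjusted p = 1.41e-06). Sp2 fell by 0.62 on the log2 scale (standard error 0.11, adjusted p = 0.000107), but missed the 1.5-fold line without replicate 1 of 0 nM (-0.52) and with no normalization factors. Sp4 fell by 0.67 (standard error 0.24, adjusted p = 0.0487), a call that was lost in 12 of 19 alternatives, with an adjusted p of up to 0.415. Sp1, a widely expressed activator, had an adjusted p of 0.000946 at a log2 fold change of 0.29, under the fold minimum, and Sp3 and Sp6 did not pass the test (0.01 and -0.71, adjusted p = 0.951 and 0.0600). Sp3 shares exon bases with the antisense gene Sp3os. GENCODE also places exons of other genes on the counted exons of Sp2 (D030028A08Rik), Sp4 (Gm49602), Sp6 (Gm11532) and Klf7 (Gm13748). Gm49602 lies on the strand of Sp4, the others on the opposite strand, which the counting ignored. Pairs from either gene cannot be told apart there. Among the 3 Sp genes under 1 RPKM, Sp9 had 1 and 4, 11 and 16, and 26 and 15 counts with 0, 10 and 100 nM. In a fit of all genes with a count it rose by 2.35 log2 units at 10 nM (adjusted p = 0.00986) and by 2.87 at the top dose (standard error 0.65, adjusted p = 0.000161), while Sp7 and Sp8 were not called. In that fit 3.37% of 23204 genes were called higher and 4.62% lower at 100 nM. Over the alternatives the value of Sp9 ran from 2.25 without replicate 1 of 0 nM to 4.07 without replicate 2 of 0 nM.

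**Figure D4:**
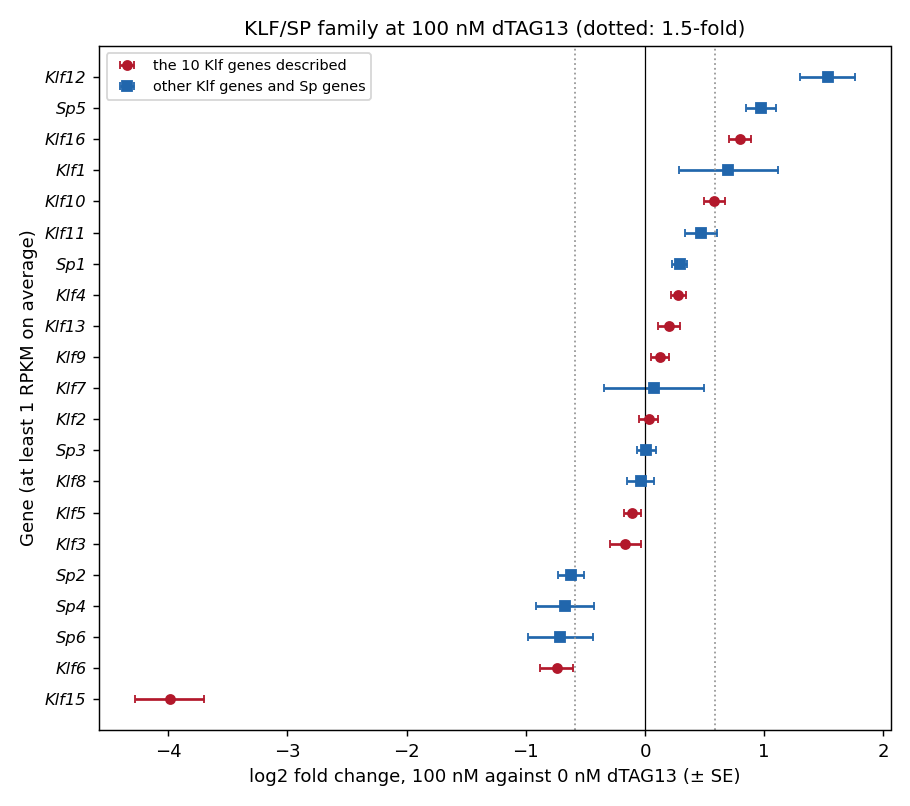
Log2 fold change at 100 nM against 0 nM dTAG13 (± SE) of the 21 KLF and SP genes of at least 1 RPKM on average, sorted by value, with dotted lines at a fold change of 1.5. Klf12 (1.53) is at one end and Klf15 (-3.99) at the other, and the remaining genes lie between -0.74 (Klf6) and 0.97 (Sp5).

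Genes whose products work with KLF proteins or sit in pathways that control Klf genes were listed from background knowledge. They were counted at 100 nM in the same test. Earlier results of these data were known when the lists were made, so the counts are no independent test. The share of all 11378 tested genes called at this dose, 4.37% higher and 6.83% lower, is the background of each count that follows. Of 8 corepressor genes of the CtBP and SIN3 complexes, 0 were called. The most abundant, the deacetylase gene Hdac1, had 163 ± 4.16 RPKM without and 152 ± 6.74 RPKM with 100 nM dTAG13 (SD, n = 2, adjusted p = 0.248 in edgeR's test), and Sap30 had a log2 fold change of 0.46 (adjusted p = 0.000379) below the fold minimum. None of 4 acetyltransferase genes passed both criteria, with Kat2a at 0.25 (adjusted p = 0.0138) and Ep300 at 0.09 (adjusted p = 0.336). The 8 tested ubiquitin ligase and kinase genes that act on KLF proteins likewise gave 0 calls. Among them Fbxo22 stood at 0.53 (adjusted p = 2.77e-06), under the fold minimum.

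Of 9 genes that act upstream of Klf2, Klf4 and Klf5 in mES cells, 1 was called higher and 1 lower, beside 4.37% and 6.83% of all tested genes. Mef2d, named as an input to Klf2, went from 8.02 ± 0.176 to 12.7 ± 0.500 RPKM (SD, n = 2, log2 fold change 0.67, edgeR adjusted p = 0.000921). Tfcp2l1, a LIF-STAT3 target, fell from 131 ± 1.41 to 84.0 ± 1.49 RPKM (SD, n = 2, log2 fold change -0.64, edgeR adjusted p = 1.40e-10). In the same list Il6st (0.58), Lifr (0.46) and Gbx2 (0.42) stood higher but under the fold minimum (edgeR adjusted p = 0.000264, 1.02e-05 and 0.0484). Among 12 pluripotency genes that share targets with the 3 KLF proteins, the orphan receptor gene Nr5a2 rose by 0.72 (adjusted p = 4.81e-07). Tcl1, an AKT cofactor gene, had a log2 fold change of -3.00 (adjusted p = 2.92e-10), Tbx3 one of -0.77 (adjusted p = 8.86e-09), and Lefty1, a NODAL antagonist gene, one of -0.98 (adjusted p = 0.0123). The study itself reports lower Tbx3 and Tcl1 with BRG1 loss, so the calls of Tcl1 and Tbx3 are no independent test. The call of Lefty1 was lost in 4 of 20 alternatives, with adjusted p between 0.000427 and 0.122, among them those without replicate 1 of 0 nM and without either 100 nM library. The median log2 fold change was 0.15 in the first list and -0.17 in the second, against 0 for all tested genes.

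Lists of hormone and growth factor responses in which Klf genes are also induced were counted in the same way. In the glucocorticoid list, the hormone that also induces Klf9 and Klf15, 2 of 7 tested genes fell, the phosphatase gene Dusp1 (-1.03, adjusted p = 1.51e-05) and the metallothionein gene Mt2 (-0.88, adjusted p = 6.43e-06), and the median was -0.16. Of 7 metabolic genes known as KLF15 targets in liver, muscle and heart, 4 were of at least 1 RPKM, and 1 of these was called. Bcat2 (-0.25), Prodh (-0.02) and Gpt (0.65) were not called (adjusted p = 0.0529, 0.941 and 0.209), and the median was 0.31. Kcnip2, a potassium channel subunit gene, rose by 1.41 (adjusted p = 0.00287), from 0.976 to 2.61 RPKM. It stood under 1 RPKM at 0, 0.3 and 1 nM and passed the filter through its higher doses, the fit without the filter gave 1.33 (adjusted p = 0.00234), and its adjusted p was 0.0511 without replicate 2 of 0 nM, within a range of 0.000158 to 0.0511 over 20 alternatives. Among 7 tested immediate-early genes, Btg2 (-0.88, adjusted p = 1.96e-05) and Junb (-0.61, adjusted p = 0.00672) were called lower, and the median was -0.18. Ier2 went from 84.1 to 122 RPKM, by 0.54 (adjusted p = 2.40e-05), under the fold minimum. Junb missed the 1.5-fold line in 3 of 20 alternatives, without replicate 1 of 0 nM, without replicate 2 of 100 nM and with no normalization factors. Over the 77 tested genes of these lists and the family lists, 5 were called higher and 11 lower at 100 nM, beside 4.37% and 6.83% of all tested genes, with a median log2 fold change of -0.02 against 0. Nothing particular to the lists is read from these shares.

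Outside the Klf family, the tested genes whose 5 log2 fold changes were nearest to those of Klf4, by root mean square difference over the 5 doses, were Syncrip (0.028), an RNA-binding protein gene, Xpo4 (0.034) and Kpna1 (0.035), genes of nuclear transport. At 100 nM their log2 fold changes were 0.25, 0.26 and 0.22. Those nearest to Klf15 were Plet1 (0.30), a surface protein gene of placental progenitors, Laptm5 (0.45), a lysosomal membrane protein gene, and Sfrp1 (0.46), a secreted WNT antagonist gene. Their log2 fold changes at 100 nM were -3.62, -3.66 and -3.25, against -3.99 for Klf15, and at 0.3 nM they stood at -0.32, -0.35 and -0.40 where Klf15 stood at 0.12. At 0 nM Laptm5 and Sfrp1 had 49.9 and 72.3 RPKM and Plet1 7.77, beside 8.66 for Klf15.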

How the data were processed

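Read-pair counts per gene symbol were deposited by the authors without normalization or filtering. Per the file headers and the study's methods, 75-bp paired-end reads of a SMART-Seq Stranded library were trimmed with Trim Galore, aligned to mm10 with HISAT2 and counted on exons with featureCounts 2.0.1, which required both ends of a pair to be aligned, skipped multi-mapped pairs and ignored the strand. From these counts, RPKM was derived using TMM-scaled library sizes and the deposited exon lengths. Genes averaging 1 RPKM or more over 12 libraries (11378) were fitted together over the 6 groups in R 4.3.3 with edgeR 4.0.16 (limma 3.58.1), each dose was compared with 0 nM by the quasi-likelihood test, and calls needed an adjusted p (Benjamini-Hochberg) under 0.05 with a fold over 1.5. Standard errors are the log2 fold change divided by the square root of its F value. Genes under the filter came from a second fit of the 23204 genes with a count. The biological coefficient of variation was 6.20%. No replicate pair agreed within sampling noise.

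The members and lists were chosen with earlier results of these data known. Named genes were all 10 members, other Klf or Sp genes called at any dose, and, from each further list, up to 4 genes called at 100 nM by absolute log2 fold change or otherwise the 2 with the highest mean RPKM. Genes most like Klf4 and Klf15 were the 3 nearest over 5 log2 fold changes. Some genes that this rule names are not reported here. Marker lists were summed only. Alternatives covered the test (likelihood ratio, as in the study, and DESeq2 1.42.0), scaling, filter, pairwise fits, a replicate block, the fold minimum and each library left out. Steps were tested on simulated data.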

Additional observations from a re-analysis of the deposited data

How the results depend on the processing

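The members called lower at 100 nM, Klf15 and Klf6, were 2 under all alternatives. Members called higher at 100 nM were 1 as reported and 2, with Klf10 added, under DESeq2's Wald test, RLE size factors, upper-quartile factors and no normalization factors. Leaving out 1 library gave 1 to 2, with 2 without replicate 1 of 0 nM, replicate 2 of 10 nM or replicate 1 of 100 nM. Without the fold minimum, 3 members were called higher at 100 nM, 2 higher and 3 lower at 10 nM, and 1 higher and 3 lower at 3 nM. Members called lower at 10 nM were 1 to 2 with 1 library left out. Among the other listed genes at 100 nM, 17 were called higher and 21 lower without the fold minimum, against 5 and 11, and 5 to 8 were called higher with 1 library left out, 8 of them without replicate 2 of 0 nM. Since replicate numbers did not pair the libraries (correlation of deviations -0.095 to 0.093 over 15 pairs of groups, 0 above 0.1), a replicate block is an alternative only: it left 1 member called higher and 2 lower at 100 nM, and 6 and 10 of the other listed genes. At 100 nM no direction of a member changed under another scaling, which moved the median of all tested genes at that dose by at most 0.05 log2 units. Without the filter on low values the log2 fold change of Klf2 at 100 nM went from 0.03 to -0.05. Depth limits Klf15 at 100 nM, Sp9 and the genes under 1 RPKM.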
